A study of Mus musculus with 6 samples.

Results

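Libraries of experiment 1 were compared with those of experiments 2 and 3 in bulk RNA sequencing of sorted dural LECs (lymphatic endothelial cells, which form the wall of lymphatic vessels). The experiment number in the labels chose the members: 2 of the 6 libraries, AAV-CTRL 1 and AAV-VEGF-C 1, came from experiment 1, and the other 4 from experiments 2 and 3. All libraries came from wild-type C57BL/6J mice, described as male, which received an adeno-associated virus (AAV) into the cisterna magna at 4 weeks of age. The control virus (AAV-CTRL) encoded a soluble part of the receptor VEGFR3 that does not bind VEGF-C, and the other virus (AAV-VEGF-C) encoded mouse VEGF-C, the growth factor of lymphatic vessels. Each library held RNA from the pooled meninges of 10 to 12 animals, so the spread between libraries is that of pools and not of single mice. The cells were sorted as positive for LYVE-1, podoplanin and CD31 and negative for CD45, the pan-leukocyte surface protein encoded by Ptprc. Whatever differed between the repeats (animals, digestion, sort, library preparation) cannot be told apart from the experiment number.

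The dura mater holds, beside lymphatic vessels, fenestrated blood vessels, fibroblasts and many resident border-associated macrophages. These macrophages express complement C1q, lysozyme (Lyz2), the growth factor receptor Csf1r and CD45. Some of them also carry LYVE-1 on their surface, as LECs do. LEC identity rests on the transcription factor Prox1, which maintains the expression of genes such as Flt4, the gene of VEGFR3.

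Values are given as TMM-scaled CPM (counts relative to the scaled library total), a scale that corrects for the depth and for the composition of a library. Differences are log2 differences of experiment 1 minus experiments 2 and 3, fitted by edgeR with treatment as a covariate. A gene is called higher or lower where the Benjamini-Hochberg adjusted p of edgeR's quasi-likelihood test was under 0.05. Experiment 1 is a single repeat of the sort, and this fit treats libraries of the same experiment as independent. Its standard errors and p-values therefore describe the spread between libraries and do not measure the spread between repeats. Experiment 1 was the shallowest in each treatment: AAV-CTRL 1 had 6530269 counts against 7858091 and 12399498 in the other 2 control libraries, and AAV-VEGF-C 1 had 564475 counts against 1435008 and 3261935. A count of 3 corresponds to 0.503 CPM in the first of these and to 6.41 CPM in AAV-VEGF-C 1, so a low gene is hardly measurable there. The first principal component of log2 CPM held 59.0% of the variance and ranked every AAV-VEGF-C library above every AAV-CTRL library. Every AAV-VEGF-C library was also shallower than every AAV-CTRL library, so treatment and depth cannot be told apart on this component. Xist, which is transcribed from the inactive X chromosome, had 169 to 15050 counts per library, while the Y-linked genes Ddx3y, Kdm5d, Eif2s3y and Uty had 0 to 14, which goes against the description of the mice as male in all 6 libraries.

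Of 20473 genes tested, 323 were lower in experiment 1 (1.58%) and 81 were higher (0.396%). The median log2 difference over all tested genes was 0.03. The 323 lower genes took 0.282% (AAV-CTRL 1) and 0.213% (AAV-VEGF-C 1) of the counts in experiment 1, against 2.18% to 4.29% in the other 4 libraries. These genes were chosen by the same counts, so the direction of this difference was fixed in advance and only its size is described. The calls rest on AAV-CTRL 1: without it no gene passed (1607 were lower and 1099 higher at an unadjusted p under 0.05), and without AAV-VEGF-C 1 the counts were 232 lower and 2 higher. Experiments 2 and 3 differed from each other in 1 gene of the same 20473 (0.00488%, with 868 at an unadjusted p under 0.05), and DESeq2 called 49. With 2 residual degrees of freedom for this contrast, few calls do not show that the experiments were alike.

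**Figure D1:**
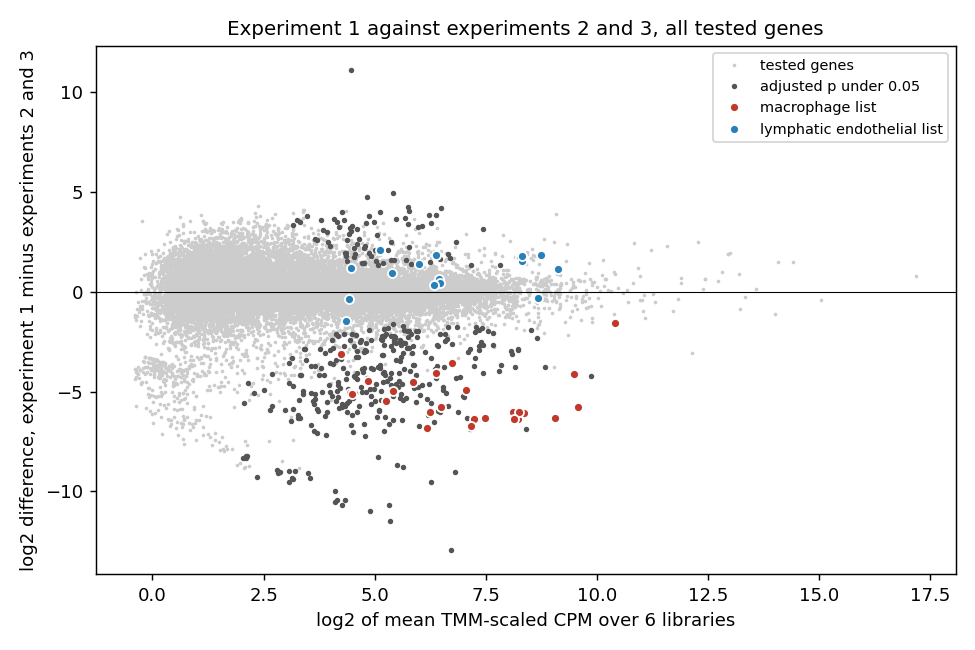
Log2 difference of experiment 1 minus experiments 2 and 3 (vertical axis) against the log2 of the mean CPM (horizontal axis) for the 20473 tested genes, 1 point per gene, with called genes in dark grey and the macrophage and lymphatic endothelial lists in colour. All 25 macrophage list genes lie below 0, and 5 of the 16 lymphatic endothelial genes are among the 81 genes called higher.

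Macrophage genes were detected at much lower levels in experiment 1. Of the 25 genes of the macrophage list, 22 were lower in experiment 1 and none was higher, against 1.58% of all tested genes called lower, and the list's median log2 difference was -5.76. Of the 25 genes, 21 were called without AAV-VEGF-C 1, and 20 with all libraries drawn down to the smallest total. Without AAV-CTRL 1 none was called, with 22 at an unadjusted p under 0.05. Lyz2, a lysozyme of myeloid cells, had 14.7 CPM in AAV-CTRL 1 against 1326 and 628 CPM in AAV-CTRL 2 and 3. In the AAV-VEGF-C libraries Lyz2 had 4.27 CPM in experiment 1 against 786 and 455 CPM. Both libraries of experiment 1 lay far below the other 4, and the fitted log2 difference of Lyz2 was -6.31 ± 0.63 (SE, adjusted p = 0.00253).

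C1qa, a chain of the complement component C1q, had 6.37 CPM in AAV-CTRL 1 against 691 and 270 CPM, and 8.55 CPM in AAV-VEGF-C 1 against 582 and 258 CPM. The pooled AAV-CTRL libraries 2 and 3 were 65.4-fold above AAV-CTRL 1 (95% exact interval of the counts 47.6 to 92.4). In AAV-VEGF-C the ratio of C1qa was 41.0 (16.0 to 151), which rests on 4 counts in AAV-VEGF-C 1. These intervals cover counting error only. The companion chains C1qb and C1qc had log2 differences of -6.38 and -6.01, so the genes of all C1q chains were lower together.

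Csf1r, the receptor for the macrophage growth factors CSF1 and IL-34, had 16.8 CPM in AAV-CTRL 1 against 1823 and 634 CPM, and 27.8 CPM in AAV-VEGF-C 1 against 1422 and 645 CPM (log2 difference -5.77 ± 0.72, adjusted p = 0.00427). Ptprc, the gene of CD45 against which the cells were gated, had 0.838 CPM in AAV-CTRL 1 against 149 and 90.5 CPM. It had 2.14 CPM in AAV-VEGF-C 1 against 122 and 67.5 CPM (log2 difference -6.83 ± 0.66, adjusted p = 0.00253). Ptprc was thus measured at 5 counts and 1 count in experiment 1, and at 177 to 1286 counts in experiments 2 and 3, although all were sorted as CD45 negative. Csf1r and Ptprc each overlap 1 other gene in the same orientation, which makes their counts uncertain to that extent.

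**Figure D2:**
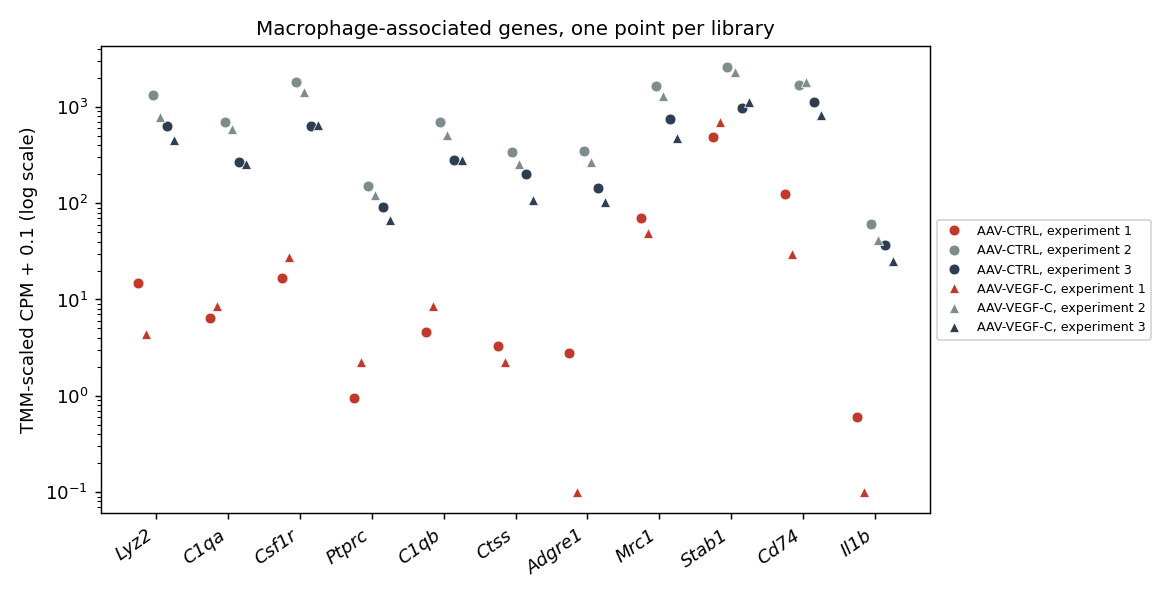
CPM plus 0.1 on a log axis for 11 genes linked to macrophages and inflammation, 1 point per library, circles for AAV-CTRL and triangles for AAV-VEGF-C, with experiment 1 in red and experiments 2 and 3 in light and dark grey. For each gene the red points lie below the other 4, by the least for Stab1, and Adgre1 and Il1b are at 0 CPM in AAV-VEGF-C 1.

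The rest of the macrophage list followed the same pattern. Adgre1 (F4/80) had 2.68 CPM in AAV-CTRL 1 against 348 and 142 CPM and was at 0 counts in AAV-VEGF-C 1, where the lower of AAV-VEGF-C 2 and 3 was at least 16.1-fold higher against a floor of 3 counts in that library. Cd163, a haemoglobin scavenger receptor of border macrophages, fell in the same way (log2 difference -6.37, adjusted p = 0.00538). Ctss, a lysosomal protease, had 3.18 CPM in AAV-CTRL 1 against 338 and 199 CPM, and 2.14 CPM in AAV-VEGF-C 1 against 254 and 107 CPM. Mrc1, the mannose receptor, which LECs can also express, had a smaller log2 difference of -4.14 and kept 69.7 and 49.1 CPM in experiment 1; without AAV-VEGF-C 1 it did not pass (adjusted p = 0.0774). Stab1, a scavenger receptor shared by macrophages and LECs, was not called (log2 difference -1.57, adjusted p = 0.214), and neither were Pf4 (-4.53, adjusted p = 0.0903) and Trem2 (-3.12, adjusted p = 0.186).

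Summed over the list, the macrophage genes had 659 CPM in AAV-CTRL 1 against 13709 and 5658 CPM, and 929 CPM in AAV-VEGF-C 1 against 10865 and 4982 CPM. Experiment 3 was thus below experiment 2 in both treatments. The list's median log2 difference of experiment 3 minus experiment 2 was -1.20, with 0 genes called. Stab1 alone made up 73.9% and 75.4% of the sums in experiment 1, and 17.3% to 22.7% in the other libraries. Without Stab1 the sums were 172 and 229 CPM in experiment 1 and 3849 to 11127 CPM in experiments 2 and 3. In AAV-VEGF-C 1, 15 of the 25 genes had at most 3 counts. The exact permutation test of the experiment label within treatment has 9 arrangements and gave p = 0.111 (two-sided) for this sum, the smallest p it allows. Within the list, 25 of 25 genes were below both other libraries in each treatment, a pattern shown by 18.1% of all tested genes.

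For the members of the lists, the 250 bases before the RefSeq start were searched for GAGGAA, the core of the PU box bound by the myeloid factor PU.1, on both strands. The letters were found in 14 of the 25 promoters (56%) listed for the 20 macrophage genes that matched and in 23.3% of all 32851 promoters of the table. The longer GAGGAAGT, which contains the core, was in 2 of the 25 promoters (8%) and in 2.44% of all promoters. The longer motif was searched first, and the core was chosen after that result had been seen, so the share of the core carries no test. A match is a description of the letters and not a measured binding site. The promoters shown were picked after the search, among windows outside the annotated gene model. Those of C1qb and Ctss are given for the genes that were lower, and those of Prox1 and Reln for LEC genes that were higher, with matches to GAGGAA or its reverse complement in capitals and the sequence from RefSeq, 5′ to 3′ on the strand of the gene.
C1qb (GRCm38.p6, chr4:136886201-136886450, minus strand): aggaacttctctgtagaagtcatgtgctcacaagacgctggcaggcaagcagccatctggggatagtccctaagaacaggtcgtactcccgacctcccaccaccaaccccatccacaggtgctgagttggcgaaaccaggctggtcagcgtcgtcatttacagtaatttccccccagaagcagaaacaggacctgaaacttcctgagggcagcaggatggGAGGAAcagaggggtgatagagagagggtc
Ctss (GRCm38.p6, chr3:95526536-95526785, plus strand): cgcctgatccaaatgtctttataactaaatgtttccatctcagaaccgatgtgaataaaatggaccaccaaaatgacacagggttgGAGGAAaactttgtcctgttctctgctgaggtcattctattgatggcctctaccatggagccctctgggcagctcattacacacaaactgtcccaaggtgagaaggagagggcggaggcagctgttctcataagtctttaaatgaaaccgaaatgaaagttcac
Prox1 (GRCm38.p6, chr1:190170828-190171077, minus strand): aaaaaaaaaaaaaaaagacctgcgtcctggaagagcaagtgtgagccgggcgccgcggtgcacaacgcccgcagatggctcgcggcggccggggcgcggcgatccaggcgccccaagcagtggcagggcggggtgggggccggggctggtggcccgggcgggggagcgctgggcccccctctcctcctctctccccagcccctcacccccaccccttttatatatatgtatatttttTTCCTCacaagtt
Reln (GRCm38.p6, chr5:22344706-22344955, minus strand): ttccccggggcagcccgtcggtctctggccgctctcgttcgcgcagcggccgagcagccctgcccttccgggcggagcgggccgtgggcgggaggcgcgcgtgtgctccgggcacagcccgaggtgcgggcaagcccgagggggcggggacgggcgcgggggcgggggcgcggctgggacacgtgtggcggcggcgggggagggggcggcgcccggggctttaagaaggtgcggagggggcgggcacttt

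C1qb, Ctss and Prox1 each hold 1 match to the core, 30, 164 and 13 bases before the start, and Reln holds none. Among the lymphatic endothelial genes, 4 of 14 promoters held the core (28.6%).

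The 15 largest falls were all of genes outside the macrophage list. That list is a selection, and genes outside it can also be expressed by macrophages. A fitted difference has no bound where experiment 1 has 0 counts, so the ranking favours such genes. By fitted log2 difference where the mean level was 5 TPM (corrected for gene length) or more, the first were Cd83, Cd86, Ccl12, Ccl24 and Clec4n, all at 0 counts in both libraries of experiment 1. Cd83, a surface protein of activated antigen-presenting cells, had 243 and 124 CPM in AAV-CTRL 2 and 3 and 184 and 83.2 CPM in AAV-VEGF-C 2 and 3. Against a floor of 3 counts per library, the lower of AAV-CTRL 2 and 3 was at least 246-fold higher than AAV-CTRL 1, and the lower of AAV-VEGF-C 2 and 3 at least 13-fold higher than AAV-VEGF-C 1. Cd86, a costimulatory ligand of T cells, exceeded that floor in the same way by at least 95.8-fold in AAV-CTRL and 3.95-fold in AAV-VEGF-C. Ccl12, a monocyte chemoattractant, had 30.0 to 63.8 CPM in experiments 2 and 3, and Ccl24, a chemokine for eosinophils, 17.6 to 52.1 CPM. Lilrb4a, an inhibitory receptor of myeloid cells with a close paralog, had 2 counts and 0 counts in experiment 1, against 306 to 1770 counts elsewhere. The other 9 of the 15 largest falls were Ms4a6c, Gpr65, Cd300ld4, Ms4a4a, Ltf, Dok2, Cd209f, Lilr4b and Ccl3. Ltf did not pass without AAV-CTRL 2, AAV-VEGF-C 1 or AAV-VEGF-C 3. Its 5.53 CPM in AAV-VEGF-C 2 lay under the floor of 6.41 CPM in AAV-VEGF-C 1. Cd300ld4 did not pass when any 1 AAV-VEGF-C library was left out. Ms4a4a did not pass without AAV-VEGF-C 2 or AAV-VEGF-C 3, nor Dok2 without AAV-VEGF-C 2.

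Genes of antigen presentation and inflammation were lower as well. Of 8 MHC class II genes, 6 were lower (median log2 difference -3.06), against 1.58% of all tested genes. Cd74, the invariant chain, had 125 CPM in AAV-CTRL 1 against 1685 and 1116 CPM, and 29.9 CPM in AAV-VEGF-C 1 against 1796 and 825 CPM, and without AAV-VEGF-C 1 it did not pass (adjusted p = 0.0711). Of 16 inflammatory genes, 9 were lower, also against 1.58%: Il1b, Tnf, Ccl2, Ccl3, Ccl4, Ccl7, Cxcl2, Vcam1 and Tnfaip3. Il1b, the cytokine IL-1β, had 3 counts and 0 counts in experiment 1 against 60 to 519 counts elsewhere (log2 difference -6.63 ± 0.70, adjusted p = 0.00319). Vcam1, an adhesion molecule that endothelial cells also make, had 34.9 CPM in AAV-CTRL 1 against 311 and 214 CPM, and 19.2 CPM in AAV-VEGF-C 1 against 178 and 90.9 CPM. The inflammatory genes that did not pass included Ptgs2 (log2 difference -0.32), Socs3 (-0.35) and Cxcl1 (0.32), the gene of a neutrophil chemokine.

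Few genes of the other blood cell lists were called. The list medians ran from -5.11 (monocyte and neutrophil) to 0.71 (platelet). In the monocyte and neutrophil list 3 of 11 tested genes were lower (1.58% of all tested genes), the granule genes Ltf and Mpo and the G-CSF receptor Csf3r. Of these, Ltf did not pass without AAV-CTRL 2, AAV-VEGF-C 1 or AAV-VEGF-C 3. Ighm, the heavy chain of IgM, was the only one of 8 tested B cell genes called (log2 difference -5.51, adjusted p = 0.00387), with 10 counts and 1 count in experiment 1 against 103 to 835. Hbb-bs, a β-globin, was the only one of 6 tested erythroid genes called, and it did not pass without AAV-VEGF-C 1 (adjusted p = 0.0574). No gene of the T and NK cell, mast cell or platelet lists was called, but only 4, 3 and 3 of their genes could be tested.

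**Figure D3:**
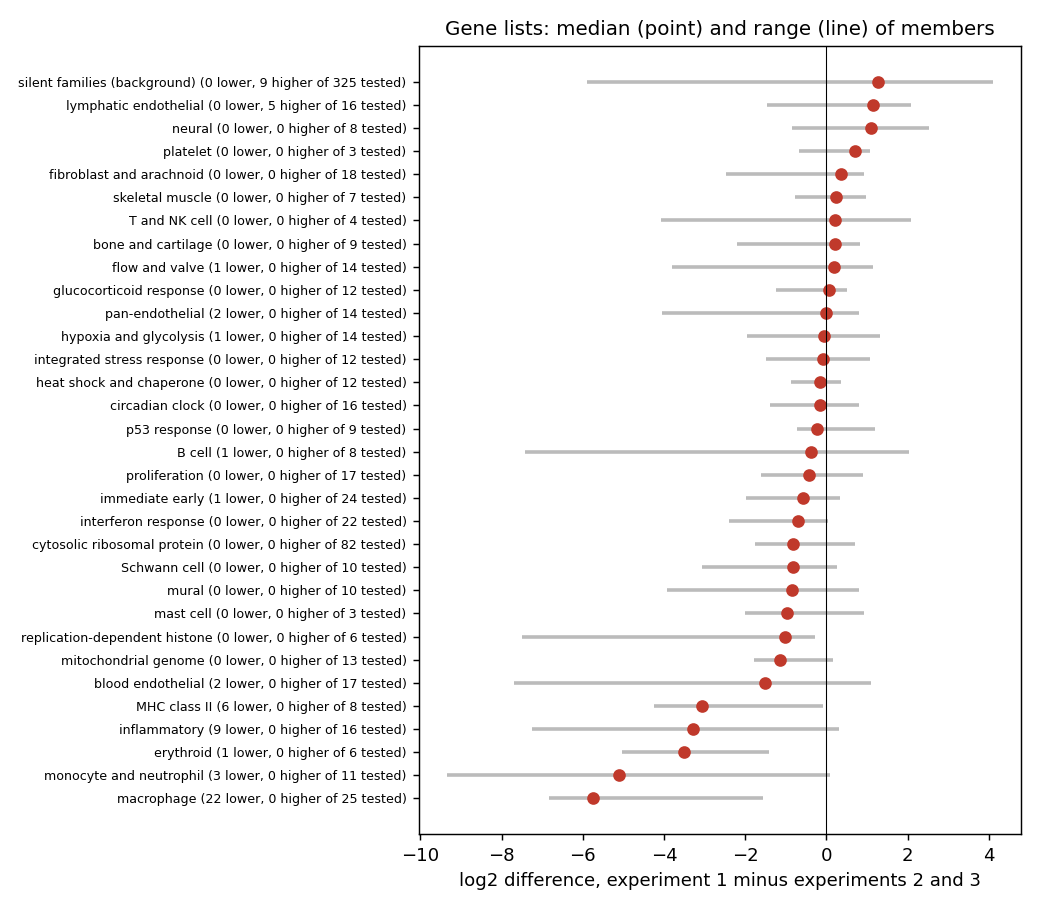
Median (point) and range (line) of the fitted log2 differences of experiment 1 minus experiments 2 and 3 over the tested members of each gene list, with the number called lower and higher. The macrophage list has the lowest median at -5.76, and the lymphatic endothelial list has a median of 1.16.

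Of 16 lymphatic endothelial genes, 5 were higher in experiment 1 (Prox1, Flt4, Mmrn1, Reln and Tbx1), none was lower and 11 did not pass. The median log2 difference was 1.16, with a range from -1.46 to 2.09, and 0.396% of all tested genes were called higher. Genes of families silent in these cells, such as olfactory receptors, moved in the same direction: their median was 1.26, and 9 of 325 tested were higher and none lower. The part of that background in the lymphatic endothelial differences was not tested. Prox1 had 111 CPM in AAV-CTRL 1 against 44.8 and 36.9 CPM, and 216 CPM in AAV-VEGF-C 1 against 60.8 and 32.8 CPM (log2 difference 1.83 ± 0.34, adjusted p = 0.0208). Flt4 had 479 CPM in AAV-CTRL 1 against 221 and 185 CPM, and 660 CPM in AAV-VEGF-C 1 against 231 and 131 CPM (1.56 ± 0.34, adjusted p = 0.0468). For both genes the libraries of experiment 1 were the 2 highest of the 6. Reln, the secreted protein reelin, had 450 and 718 CPM in experiment 1 and 107 to 220 CPM elsewhere, although it overlaps 3 other genes on its strand.

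Mmrn1, the extracellular matrix protein multimerin-1, had 543 and 639 CPM in experiment 1 and 87.0 to 289 CPM elsewhere. Tbx1, a T-box transcription factor, had 67.9 and 74.8 CPM in experiment 1 and 12.3 to 21.5 CPM elsewhere (log2 difference 2.09 ± 0.34, adjusted p = 0.0114). Of the 16 genes, 0 passed without AAV-CTRL 1, without AAV-VEGF-C 1 or without AAV-VEGF-C 2, while 1 passed without AAV-VEGF-C 3 and 2 without AAV-CTRL 3. Prox1 overlaps 2 genes on the opposite strand, whose reads cannot be told apart where counting ignores strand. Ccl21a, the chemokine that draws dendritic cells into lymphatics, had 587 and 1051 CPM in experiment 1 and 143 to 372 CPM elsewhere, and did not pass (1.85, adjusted p = 0.0596). Ccl21a and the called gene Ccl21b are near-identical, so reads can be split between them. Thy1 (1.38, adjusted p = 0.0567), Pdpn (0.95, adjusted p = 0.183), Nrp2 (1.12, adjusted p = 0.407) and Lyve1 (0.32, adjusted p = 0.849) did not pass either. Lyve1, which marks LECs and some macrophages, had 64.2 and 122 CPM in experiment 1 and 40.8 to 134 CPM elsewhere, so the groups overlapped.

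**Figure D4:**
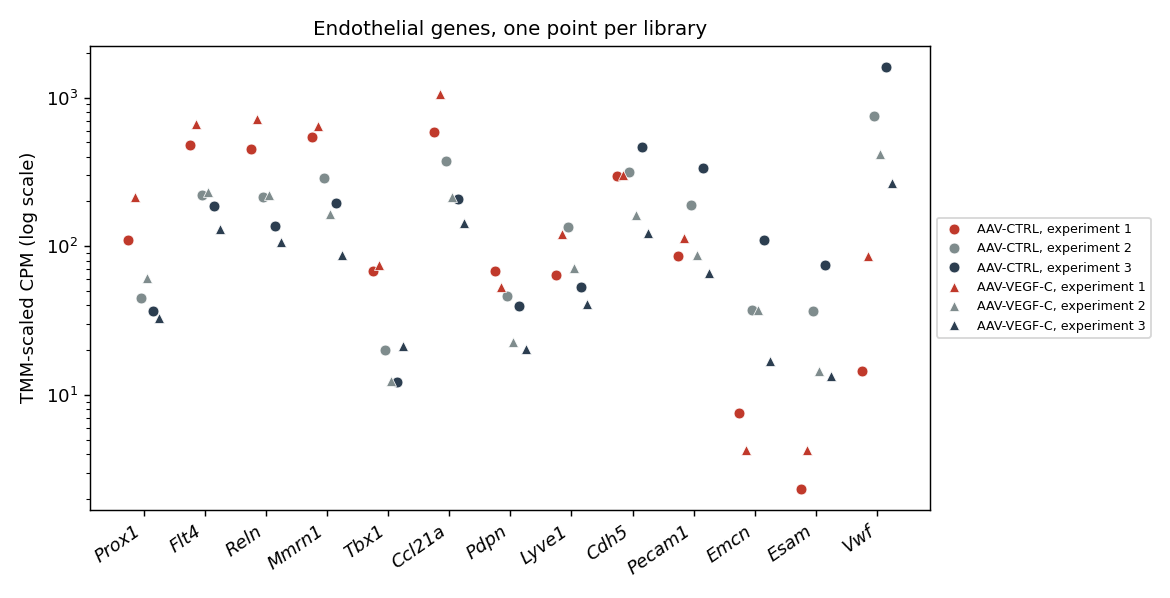
CPM on a log axis for 13 endothelial genes, 1 point per library, circles for AAV-CTRL and triangles for AAV-VEGF-C, with experiment 1 in red and experiments 2 and 3 in light and dark grey. The red points are the highest for Prox1, Flt4, Reln, Mmrn1, Tbx1 and Ccl21a and the lowest for Emcn, Esam and Vwf, and they overlap the others for Lyve1, Cdh5 and Pecam1.

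Of 14 genes listed as shared by blood and lymphatic vessels (pan-endothelial), 2 were lower, against 1.58% of all tested genes, and the median log2 difference was -0.01. That median was 0.81 without AAV-CTRL 1 and -1.02 without AAV-VEGF-C 1. Cdh5, the gene of VE-cadherin, had 299 and 301 CPM in experiment 1 and 123 to 466 CPM elsewhere. Pecam1, the gene of CD31, had 85.3 and 113 CPM in experiment 1 and 65.8 to 334 CPM elsewhere. The called genes were Emcn, a sialomucin of venous and capillary endothelium (log2 difference -3.16, adjusted p = 0.0389), and Esam, an adhesion molecule (-4.06, adjusted p = 0.0171). Without AAV-VEGF-C 2 neither passed (adjusted p = 0.130 and 0.0792), nor without AAV-VEGF-C 3 (0.0568 and 0.0591) or AAV-CTRL 1, and Emcn also failed without AAV-VEGF-C 1 (0.118).

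Of 17 blood endothelial genes 2 were lower, Sele, the cytokine-induced E-selectin, and Ly6c1 (log2 differences -5.88 and -5.41), with a list median of -1.52 and the same background of 1.58%. The members ran from -7.69 to 1.11. The list's summed CPM overlapped, at 638 and 867 CPM in experiment 1 and 685 to 3251 CPM elsewhere (exact permutation p = 0.333). Vwf, the von Willebrand factor of blood vessel endothelium, had 14.6 CPM in AAV-CTRL 1 against 753 and 1604 CPM, and 85.5 CPM in AAV-VEGF-C 1 against 420 and 267 CPM. It did not pass (-3.77 ± 0.99, adjusted p = 0.0948). Flt1, the gene of VEGFR1, had 14.1 CPM in AAV-CTRL 1 against 224 and 631 CPM, and 68.4 CPM in AAV-VEGF-C 1 against 195 and 95.9 CPM (-2.77, adjusted p = 0.191). Nos3, the endothelial nitric oxide synthase, was lower in experiment 1 (-3.81, adjusted p = 0.0248), and did not pass without AAV-VEGF-C 2 (adjusted p = 0.121). Sele passed in none of the fits that left out AAV-CTRL 1, AAV-CTRL 3 or an AAV-VEGF-C library.

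Ratios within a library do not depend on the scaling between libraries. By TPM, the ratio of Prox1 to Cdh5 was 0.357 in AAV-CTRL 1 against 0.115 and 0.0703, and 0.683 in AAV-VEGF-C 1 against 0.206 and 0.180. The ratio of Vwf to Cdh5 ran the other way, at 0.0343 and 0.241 in experiment 1 and 1.18 to 1.96 elsewhere. The summed TPM of the macrophage list was 0.118 and 0.123 times that of the lymphatic endothelial list in experiment 1 and 4.53 to 7.15 times in experiments 2 and 3. In these 3 ratios both libraries of experiment 1 lay outside the range of the other 4 (two-sided exact permutation p = 0.111 for each, the smallest possible). The ratio of the sort markers Pdpn and Pecam1 was 1.18 and 0.483 in experiment 1 and 0.175 to 0.669 elsewhere, so the groups overlapped (exact permutation p = 0.444). The ratio of the lymphatic endothelial to the pan-endothelial list was 3.59 and 3.97 in experiment 1 and 0.651 to 2.09 elsewhere (exact permutation p = 0.222). For the blood endothelial list over the pan-endothelial list it was 0.743 and 0.624 in experiment 1 and 0.850 to 0.925 elsewhere (exact permutation p = 0.111). This list ratio shifted far less than that of Vwf to Cdh5. In bulk samples, fewer cells of a type and less RNA per cell cannot be told apart.

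Among the 15 largest rises were further genes of endothelium, Ccl21b, the hyaluronan receptor gene Stab2 (log2 difference 1.70 ± 0.32) and the netrin receptor gene Unc5b (1.64 ± 0.28). Stab2 had 189 and 192 CPM in experiment 1 and 40.8 to 84.1 CPM elsewhere. Unc5b had 143 and 184 CPM in experiment 1 and 48.5 to 53.9 CPM elsewhere. Neither Stab2 nor Unc5b passed without AAV-CTRL 1 or without any 1 of the AAV-VEGF-C libraries (adjusted p 0.0887 to 0.301 and 0.0547 to 0.175). Tbx3os2 and Chrm1, also among the largest rises by fitted difference, were high in AAV-VEGF-C 1 at 111 and 432 counts and had 7 and 23 in the control library of experiment 1. Pax6 had 214 CPM in AAV-VEGF-C 1, 55.3 and 27.8 CPM in AAV-VEGF-C 2 and 3, 20.8 CPM in AAV-CTRL 1 and 5.95 and 3.52 CPM in AAV-CTRL 2 and 3. These 3 genes ranked the 6 libraries in the same order as the background of silent families did, though not by the same factors. The 1653 genes of those families summed to 8285 CPM in AAV-VEGF-C 1 and to 3552 and 2468 CPM in the other AAV-VEGF-C libraries. In AAV-CTRL 1 they summed to 287 CPM, against 166 and 119 CPM in the other AAV-CTRL libraries. The part of that background in these rises was not tested. The other rises described were Ptx3, Scn3a and Mdfi, beside the 5 lymphatic endothelial genes.

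Most other lists held no called gene. Collagen and other genes of the fibroblast and arachnoid list were abundant in every library, at 6741 to 28092 summed CPM, more than the lymphatic endothelial list in each library (1337 to 5826 CPM), and 0 of 18 were called (median log2 difference 0.35). Of 24 immediate early genes, which are induced by handling and digestion of tissue, only Egr3 was lower (-1.97, adjusted p = 0.0203), while Fos (-0.16) and Jun (-0.40) did not pass. Of 14 tested genes of hypoxia and glycolysis only the glucose transporter gene Slc2a1 was lower (-1.95, adjusted p = 0.0425). Egr3 did not pass without AAV-VEGF-C 2 (adjusted p = 0.0658). Nor did Egr3 pass without AAV-VEGF-C 1, where its log2 difference was -1.91. Slc2a1 did not pass when any 1 library of experiments 2 and 3 was left out. Its log2 difference was -2.46 without AAV-VEGF-C 1 and -1.24 without AAV-CTRL 1. None of 22 interferon response genes (median -0.71), 82 ribosomal protein genes (-0.82) or 13 mitochondrial genes (-1.14) was called. Neither were the mural, Schwann cell, bone, muscle, neural, heat shock, stress, p53, circadian, glucocorticoid, proliferation and histone genes. In experiment 1, many members of some lists still lay below both other libraries in each treatment, as 18.1% of all tested genes did. This held for 70 of 85 listed ribosomal protein, 12 of 13 mitochondrial, 15 of 22 interferon response and 15 of 24 immediate early genes. Above both other libraries lay 2, 0, 0 and 2 of them, against 19.2% of all tested genes.

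The difference of experiment 1 was compared between treatments. No gene of 22758 had an interaction of treatment and experiment 1 in edgeR (0%), with 1489 at an unadjusted p under 0.05, and DESeq2 called 21. The macrophage list had a median log2 difference of -6.02 within AAV-CTRL and -5.24 within AAV-VEGF-C, and the lymphatic endothelial list 0.89 and 1.71. With 1 library of experiment 1 per treatment, this test has 2 residual degrees of freedom.

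The treatment comparison was fitted with and without this term. With experiment 1 as a term in the fit, AAV-VEGF-C was higher for 3647 genes (17.8%) and lower for 1103 (5.39%). Without the term the counts were 2810 and 367. With the term, 305 of the higher and 1008 of the lower genes had a mean TPM of at least 5. Of 325 tested genes of silent families, 294 were higher in AAV-VEGF-C and 0 lower (median log2 difference 4.81). Every AAV-VEGF-C library was shallower than every AAV-CTRL library, so treatment and depth cannot be told apart. The part of depth and of this background in the treatment calls was not tested. Among the 25 macrophage genes, 0 differed between treatments (median log2 difference of AAV-VEGF-C minus AAV-CTRL -0.22). The median standard error of that difference was 0.48 with the term and 1.28 without it. For the 16 lymphatic endothelial genes 0 differed between treatments, and the median standard error was 0.37 with the term and 0.58 without it. For Ptprc the standard error was 0.41 with the term and 1.34 without it.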

How the data were processed

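Bulk RNA sequencing of 6 libraries of sorted dural LECs was analysed. The authors deposited unscaled estimated counts for each gene. The TPM values they deposited beside them are scaled for gene length and library total. The submitters' processing notes name FastQC, Trimmomatic, DRAGEN, Picard and build mm10, and the use of strand in counting is not given in the sources used here. Positions and overlaps came from GENCODE M21 (GRCm38), which shares 98.1% of the 55401 versioned identifiers.

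Groups and experiment numbers came from the labels. Estimated counts were rounded, filtered by filterByExpr on the design matrix and scaled by TMM (edgeR 4.0.16, R 4.3.3). The quasi-likelihood test compared experiment 1 with experiments 2 and 3, with treatment as a covariate, on all genes, with 3 residual degrees of freedom. Standard errors were derived from that test, as the absolute log2 difference over the square root of its F value. The study used DESeq2, run here as an alternative (version 1.42.0) beside limma 3.58.1. The fit was tested on simulated data. The simulation set no difference between treatments and changed only genes above a minimum CPM, so it does not cover weakly expressed genes. The depth ran from 564475 to 12399498 counts, and precision is lowest for weakly expressed genes in AAV-VEGF-C 1. Same-numbered libraries, which the labels tie to 1 repeat, deviated together from their group means (r across genes 0.32, 0.23 and 0.12, against -0.33 to 0.18 between libraries of different numbers, the highest for AAV-CTRL 3 and AAV-VEGF-C 2). No 2 libraries of a group agreed within sampling noise (smallest chi-square over its degrees of freedom 9.61).

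The named genes are the cell type and sort markers, members of the described lists, and the 15 largest rises and 15 largest falls with an adjusted p under 0.05, a mean TPM of at least 5 and no overlap within treatment, without pseudogenes, predicted genes, small RNAs or genes for ribosomal proteins, histones or mitochondrial products. One of the rises is not reported here. The members and lists were chosen with earlier results of these data known. Alternatives covered scaling, filters, the test, drawn-down counts, the replicate block and leaving out each library.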

Additional observations from a re-analysis of the deposited data

Results flagged for a closer look

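In 3 of the 34 summed lists, AAV-CTRL 1 lay on one side of both other AAV-CTRL libraries and AAV-VEGF-C 1 on the opposite side of both other AAV-VEGF-C libraries, and the difference between treatments was not tested for these sums. The pan-endothelial sum was 1139 CPM in AAV-CTRL 1 against 1614 and 2776 CPM, and 1502 CPM in AAV-VEGF-C 1 against 987 and 731 CPM. The heat shock and chaperone sum was 3128 CPM in AAV-CTRL 1 against 2589 and 2966 CPM, and 1143 CPM in AAV-VEGF-C 1 against 2155 and 1925 CPM. The circadian clock sum was 1258 CPM in AAV-CTRL 1 against 1247 and 1039 CPM, and 643.1 CPM in AAV-VEGF-C 1 against 900.2 and 741.3 CPM. With 3 libraries per treatment, each of these rests on 1 library against 2.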

How the results depend on the processing

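The number of genes lower in experiment 1 (323) was 582 with library size alone, 793 with no filter, 154 at a mean TPM of at least 5, 593 with DESeq2, 814 and 712 with limma on log2(TPM + 1) and log2(TPM + 0.1), 26 with voom and sample weights, 81 with no treatment term and 495 at an adjusted p under 0.1. The number higher (81) was 387, 17, 275, 10, 6, 5, 1 and 215 under the same settings except library size alone, and 195 with counts drawn down to the smallest total. With the replicate block, the paired form with a term for each experiment, 512 genes were lower, 282 higher, and 23 macrophage and 7 lymphatic endothelial genes were called. Leaving out 1 library gave 0 to 461 lower, 0 to 149 higher, 0 to 23 of the macrophage genes and 0 to 5 of the lymphatic endothelial genes. Each of these was 0 without AAV-CTRL 1, and the lymphatic endothelial count was also 0 without AAV-VEGF-C 1 and without AAV-VEGF-C 2. The macrophage count (22) was 11 with voom and 15 to 25 under the other settings that kept all libraries. The lymphatic endothelial count (5) was 2 with DESeq2 size factors, the group filter and the TPM filter, and 0 with both limma fits, voom and no treatment term. These list counts were added after seeing the data. The cause of these changes was not tested. Lower genes made up 80.0% of the calls, against 98.8% and 99.2% in the limma fits, 98.8% with no treatment term, 90.1% with the TPM filter, 64.5% with the replicate block, 67.2% with no filter, 68.3% with DESeq2 and 54.8% with drawn-down counts. The median of all genes shifted from 0.03 to -0.24 with library size alone, -0.37 with no filter, 0.23 with DESeq2, 0.13 with voom and -0.42 and -0.73 in the limma fits.

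The interaction of treatment and experiment 1 (0 genes) gave 129 with no filter and 21 with DESeq2. Experiments 2 and 3 (1 gene) gave 114 with no filter, 0 with the TPM filter and 49 with DESeq2. Directions turned for genes that were not called: Lyve1 was -0.62 and -0.65, Cdh5 -0.68 and -0.70 and Cxcl1 -0.22 and -0.22 in the limma fits. With 1 library left out, Lyve1 ran from -0.67 to 1.12, Cdh5 from -0.52 to 1.08, Nrp2 from -0.26 to 2.08, Cxcl1 from -0.36 to 1.02 and Pecam1 from -1.74 to 0.55. The pan-endothelial median then ran from -1.02 to 0.81 and the flow and valve median from -0.15 to 0.23. The macrophage median stayed between -6.15 and -5.21 and the lymphatic endothelial median between 0.76 and 1.72 over the scalings, the TPM filter, the block and the left-out libraries.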

Other observations

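A small nucleolar RNA gene of the U3 family, Rnu3b4, had 237 and 44 counts in experiment 1 and 0 counts in the other 4 libraries. Galnt2l, the 1 gene called between experiments 2 and 3, had 519 and 52 counts in experiment 2 and 0 in experiment 3, and 184 and 0 counts in AAV-CTRL 1 and AAV-VEGF-C 1. Both genes were chosen after their values were seen, and U3 copies are near-identical in sequence, which makes the counts of each copy uncertain.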
